A study of Mus musculus with 11 samples.

Results

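The genes described here are 6 markers of striatal cholinergic neurons (Chat, Slc5a7, Slc18a3, Slc17a8, Ecel1 and Ache) and 3 muscarinic acetylcholine receptor genes (Chrm1, Chrm2 and Chrm4). The 9 were chosen by symbol, matched to Ensembl gene identifiers through GENCODE M21, out of 52550 genes in the count table, and followed through all 11 libraries. Each library holds poly(A) RNA of the shell of the nucleus accumbens, which belongs to the ventral striatum, from 1 mouse of a mixed background (CBA/C57BL6J/129svEmx) at 8 weeks of age. Punches were taken from 300 µm sections of frozen brain, and 200 ng of RNA went through a stranded TruSeq preparation with 12 PCR cycles. The study set out to measure how reduced signalling through the retinoic acid receptor Rarb alters transcription in the presence of a Huntington disease mutation. It names the R6/1 transgene, which is a fragment of human huntingtin with an expanded repeat driven by the human promoter, and 12 samples, of which 1, numbered 10, failed quality control. The library of m44 carries library code 10, and whether the 2 numberings are the same is not given. The labels used here give each library an animal code (m115, m49 and so on) and no genotype. No library was therefore placed in a group, and values are given for single libraries or as a median with its range.

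In the striatum acetylcholine comes mainly from large cholinergic interneurons, a small share of the neurons, whose dense axons cover the whole tissue. Chat makes acetylcholine from choline, Slc5a7 returns choline to the terminal, Slc18a3 loads acetylcholine into vesicles, and Ache breaks it down outside the cell. Most neurons around these cells are GABAergic projection neurons, which read the transmitter through muscarinic receptors. Chrm1 is found on projection neurons of both the direct and the indirect pathway, Chrm4 mostly on those of the direct pathway, and Chrm2 acts largely as an autoreceptor on the cholinergic cells.

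The promoters of 4 of these genes are shown because Chat and Slc18a3 share a locus yet differed between libraries, and because Ecel1 and Chrm4 were related to Slc18a3 in a fit without the code range of the libraries, given further on. Slc18a3 lies inside the body of Chat on the same strand, in an arrangement known as the cholinergic gene locus. Each sequence covers 250 bases before and 50 after the gene's RefSeq start in GRCm38.p6, read 5′ to 3′ on the gene's strand. The windows are chr14:32465860-32466159 (minus strand) for Chat, chr14:32464801-32465100 (minus strand) for Slc18a3, chr1:87156307-87156606 (minus strand) for Ecel1 and chr2:91921939-91922238 (plus strand) for Chrm4. Capitals mark CACGTG, which reads the same on both strands, and CGTCA, which is TGACG on the other strand.
Chat: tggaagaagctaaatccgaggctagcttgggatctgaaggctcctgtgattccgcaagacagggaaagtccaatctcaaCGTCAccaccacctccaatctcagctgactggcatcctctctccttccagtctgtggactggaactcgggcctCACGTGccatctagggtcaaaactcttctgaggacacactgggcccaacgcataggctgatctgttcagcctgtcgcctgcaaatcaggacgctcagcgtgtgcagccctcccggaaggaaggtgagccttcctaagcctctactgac
Slc18a3: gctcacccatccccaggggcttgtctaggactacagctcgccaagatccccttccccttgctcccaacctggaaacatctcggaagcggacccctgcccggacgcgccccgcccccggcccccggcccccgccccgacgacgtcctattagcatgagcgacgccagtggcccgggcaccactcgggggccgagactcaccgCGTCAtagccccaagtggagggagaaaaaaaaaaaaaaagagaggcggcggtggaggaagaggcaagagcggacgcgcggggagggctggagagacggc
Ecel1: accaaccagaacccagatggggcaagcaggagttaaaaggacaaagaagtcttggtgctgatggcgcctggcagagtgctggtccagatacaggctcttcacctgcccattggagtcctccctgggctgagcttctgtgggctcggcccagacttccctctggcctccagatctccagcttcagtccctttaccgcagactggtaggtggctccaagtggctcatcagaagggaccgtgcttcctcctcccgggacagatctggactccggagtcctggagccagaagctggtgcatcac
Chrm4: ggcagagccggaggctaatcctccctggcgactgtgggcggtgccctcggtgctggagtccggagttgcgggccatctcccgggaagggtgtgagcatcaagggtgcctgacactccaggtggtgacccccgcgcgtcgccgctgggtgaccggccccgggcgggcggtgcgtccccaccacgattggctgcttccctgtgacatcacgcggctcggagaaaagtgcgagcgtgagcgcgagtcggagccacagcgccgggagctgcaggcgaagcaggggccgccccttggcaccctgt
Both strands were searched for 4 short motifs in the 9 windows that matched 8 of the 9 genes. AGGTCA, the half-site bound by retinoic acid receptors, was in 0 of the 9 windows and in 16.3% of all 32841 promoter windows. TGACG, the half-site of cAMP response elements, was in 2 windows (Chat and Slc18a3), against 20.8% of all windows. TAATTA, a homeodomain core, was in 1 window (Slc17a8), against 5.29%, and CACGTG, an E-box, was in 2 (Chat and Ache), against 7.15%. CACGTG and TAATTA are palindromes and were counted once, and no motif overlapped another in these windows. A match or its absence describes the letters of these windows and nothing about binding.

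Gene counts summed to 24840981 in the shallowest library and 48825783 in the deepest (median 36252983), so that 3 reads, the floor for detection, were worth 0.0619 to 0.133 CPM, the unit of counts scaled to library size. All 9 genes lay above that floor in all 11 libraries. The library codes given in the descriptions run over 2 ranges, 9 to 14 (5 libraries: m57, m44, m61, m89 and m83) and 1 to 7 (6 libraries: m115, m49, m47, m74, m73 and m101), and what they stand for is not given. Libraries of these 2 code ranges stood apart in the summed level of striatal projection neuron genes. Taken singly, Pde10a, Rgs9, Bcl11b and Actn2 overlapped between the code ranges, and the others of the list did not. The summed level of 12 such genes (Ppp1r1b, Pde1b, Adcy5 and others), all of which passed the filter on low counts, was 5813 to 6950.1 CPM in codes 9 to 14 and 3005 to 3758 CPM in codes 1 to 7. The libraries also differed in how long and short transcripts were represented, which is described below. In punched tissue a change in the number of cells of a type cannot be told apart from a change in RNA per cell.

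Chat (ENSMUSG00000021919, chr14:32408203-32465989, minus strand, mm10), which encodes choline acetyltransferase, was low and uneven. Its level was 13.3 CPM in m57, 8.89 in m44, 3.32 in m61, 5.61 in m89 and 4.63 in m83, and 5.63 in m115, 3.88 in m49, 4.41 in m47, 3.89 in m74, 3.12 in m73 and 2.27 in m101. The median was 4.41 CPM, and m57 stood 5.85-fold above m101. Counting error alone gives 95% exact Poisson intervals of 12.1 to 14.6 CPM for m57 and 1.76 to 2.89 CPM for m101, so the ends of the range were far apart relative to read sampling. Slc5a7 (ENSMUSG00000023945, chr17:54273590-54299034, minus strand), the high-affinity choline transporter, ranged from 3.92 CPM in m74 through a median of 10.1 to 23.3 CPM in m57. Its second highest library was m89 at 20.3 CPM, while the second highest for Chat was m44, so the libraries highest in the 2 genes were only partly shared.

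Slc18a3 (ENSMUSG00000100241, chr14:32462438-32464850, minus strand), the vesicular acetylcholine transporter, followed another order. Its level was 6.70 CPM in m57, 9.31 in m44, 6.12 in m61, 5.39 in m89 and 7.51 in m83, against 4.31 in m115, 4.12 in m49, 2.81 in m47, 3.06 in m74, 2.53 in m73 and 3.03 in m101. All 5 libraries with codes 9 to 14 lay above all 6 with codes 1 to 7. Slc18a3 was the only 1 of the 9 genes whose 2 code ranges did not overlap, a pattern found in 2.32% of the 15373 genes tested with codes 9 to 14 the higher in 1.67% and the lower in 0.65%. The highest library for Slc18a3 was m44, whereas for Chat, in whose gene body it lies, it was m57. Exons of the 2 genes share no bases in the annotation (0 of 2413 bases of Slc18a3), so spliced reads of the 2 can be told apart, while reads of unspliced Chat RNA can fall within Slc18a3.

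Slc17a8 (ENSMUSG00000019935, chr10:89574020-89621253, minus strand), the vesicular glutamate transporter that lets cholinergic interneurons release glutamate as well, ranged from 4.68 CPM in m74 through a median of 8.93 to 18.2 CPM in m57. The next library was m115 at 14.1 CPM, a library with a low code, so the code ranges overlapped for this gene. Ecel1 (ENSMUSG00000026247, chr1:87147655-87156521, minus strand), a membrane endopeptidase-like protein enriched in these interneurons, ranged from 17.8 CPM in m73 through 35.6 to 57.02 CPM in m44. Its 4 lowest libraries were m47, m74, m73 and m101, the same 4 that were lowest for Slc18a3. Ache (ENSMUSG00000023328, chr5:137287519-137294466, plus strand), acetylcholinesterase, ranged from 92.8 CPM in m47 through 114 to 147 CPM in m74. The highest library for Ache was thus the lowest for Slc5a7 and Slc17a8, and its range of 1.59-fold was the narrowest of the 9.

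Among the receptors, Chrm1 (ENSMUSG00000032773, chr19:8663789-8683587, plus strand), which couples to Gq, ranged from 138 CPM in m115 through a median of 167 to 239.7 CPM in m57. m61 was close behind m57 at 237 CPM, and the whole range spanned 1.74-fold. Chrm4 (ENSMUSG00000040495, chr2:91927249-91928688, plus strand), which couples to Gi, was at 43.2 CPM in m57, 38.5 in m44, 25.2 in m61, 34.3 in m89 and 34.5 in m83, against 21.5 in m115, 27.4 in m49, 15.1 in m47, 19.9 in m74, 16.7 in m73 and 15.9 in m101. Only m49 and m61 kept the code ranges of Chrm4 from separating. Chrm2 (ENSMUSG00000045613, chr6:36388084-36528414, plus strand), the other Gi-coupled receptor of the set, ranged from 7.96 CPM in m74 through 12.4 to 20.4 CPM in m89. Its order was unlike that of Chrm4, with m73 second at 17.0 CPM and m83 among the lower libraries at 10.4 CPM. The strand setting of the counting is not given in the sources used here, and 142 exon bases of Chrm2 are overlapped from the other strand by 9330158H04Rik (13 to 61 counts per library), as are 98 of Ache by Gm42456 (8 to 28 counts) and 329 of Chrm1 by Gm22820 (0 to 1 counts).

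**Figure D1:**
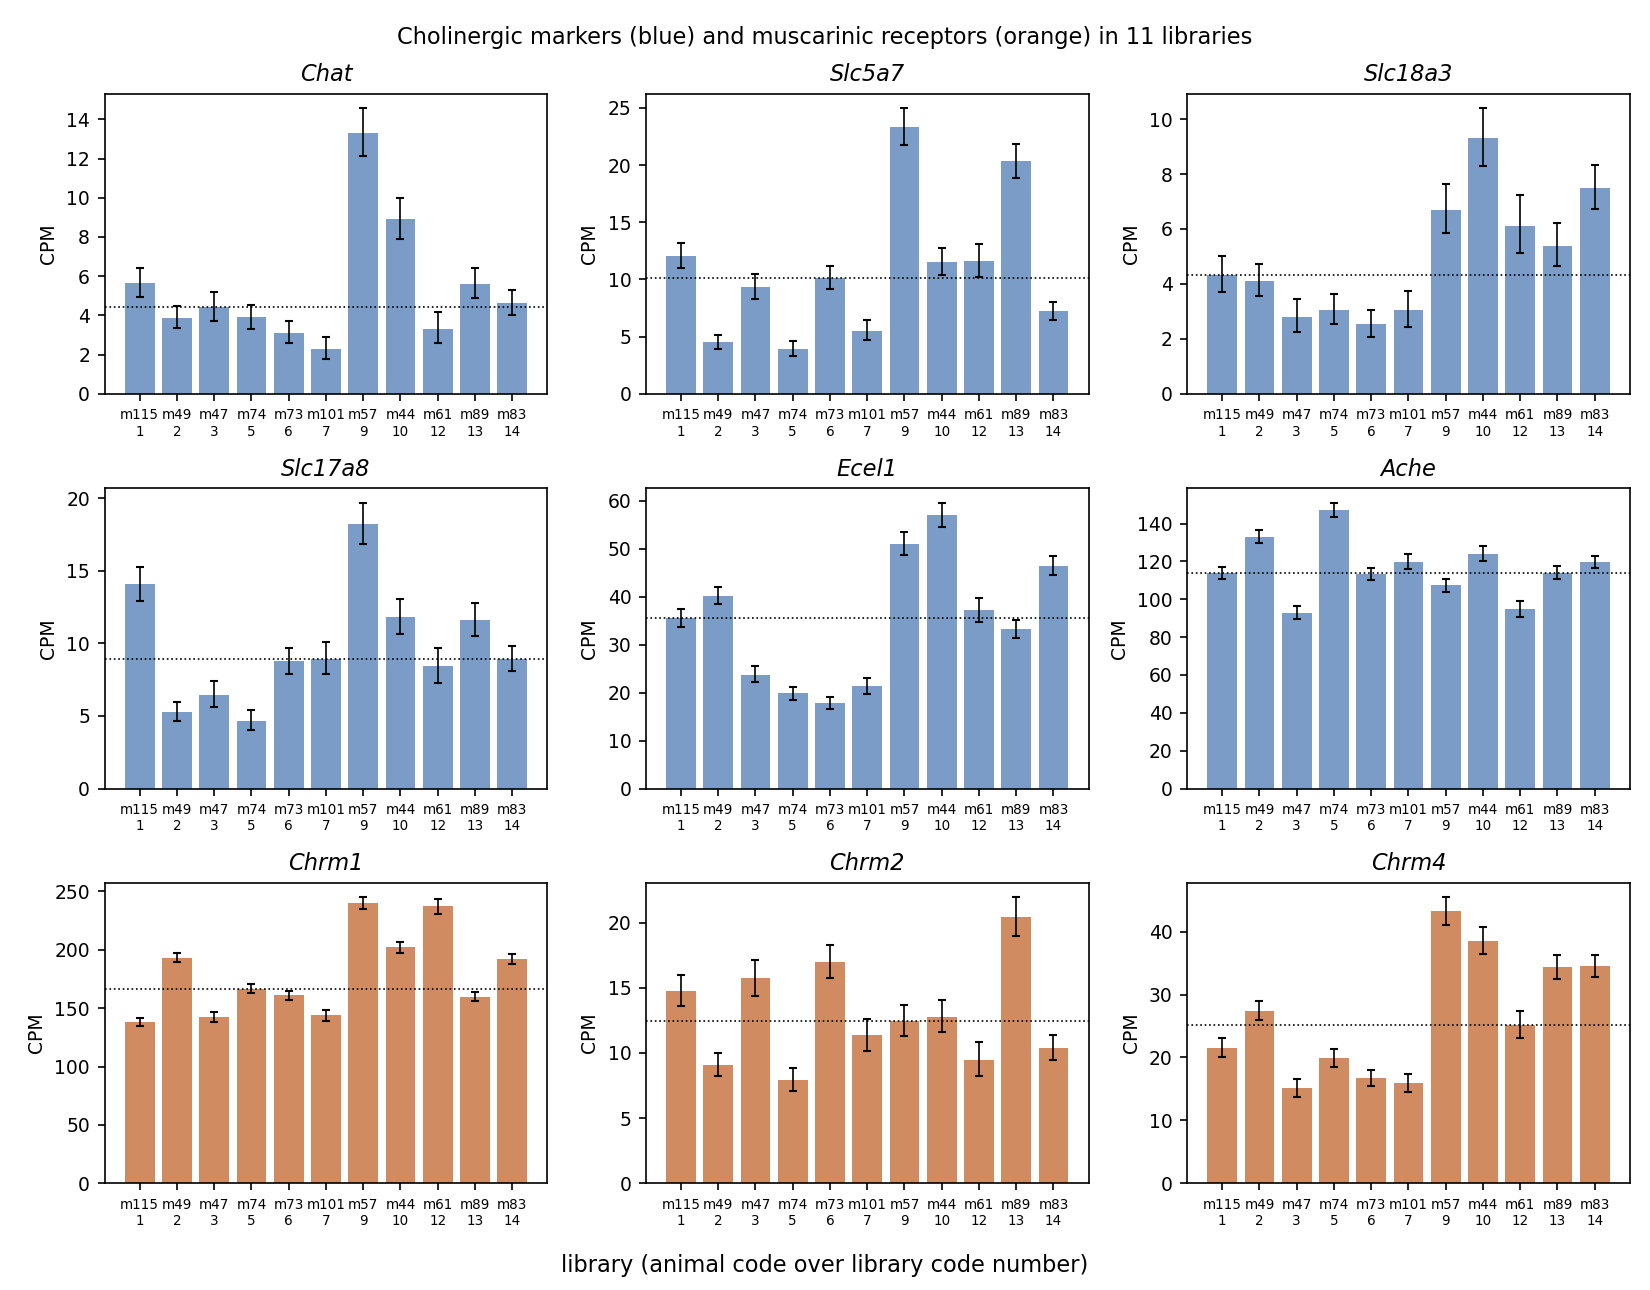
Level of each of the 9 genes in each library in CPM, with libraries in the order of their code numbers. Bars are values of single libraries, whiskers are 95% exact Poisson intervals for counting error, and the dotted line is the median over the 11. Slc18a3 is higher in every library with codes 9 to 14 than in any with codes 1 to 7, Chat and Slc5a7 peak in m57, and Ache and Chrm1 vary least.

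By how far they ranged over libraries, the markers of transmitter synthesis and transport stood at the upper end of all genes and Ache and Chrm1 at the lower. The log2 range was 2.43 for Slc5a7 and 2.32 for Chat, at percentiles 97.1 and 96.4 of the 15373 genes tested, whose median range was 0.93. Slc17a8 (percentile 91.6), Slc18a3 (88.5) and Ecel1 (87.5) came next, before Chrm4 (82.7) and Chrm2 (75.4). Chrm1 was at percentile 37.9 with a log2 range of 0.79, and Ache at 24.8 with 0.66. These percentiles compare genes of unlike depth, since Chat had 66 to 461 counts per library and so carries more counting error than Ache or Chrm1.

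Divided by exon length, which allows levels to be set roughly between genes, the receptors Chrm1 and Chrm4 were above the markers of transmitter synthesis and transport. The length is that of all annotated exons of a gene, which may differ from that of the transcripts present. The median was 25.7 CPM per kb of exon for Chrm1 and 17.5 for Chrm4, and 0.937 for Chat, 1.79 for Slc18a3, 1.80 for Slc5a7 and 1.89 for Slc17a8. Chrm2, with 2.05 CPM per kb, lay with these transmitter markers and not with the other receptors, and Ecel1 (10.2) and Ache (24.7) lay with the receptors. Between neighbours in the order, Ecel1 and Chrm2 were the only pair whose ranges over the 11 libraries did not meet. Chrm4 was above Ecel1 in 11 of 11 libraries, Ache above Chrm4 in 10 and Slc18a3 above Chat in 10. In counts not divided by length, the order of Slc18a3 and Chat changed between libraries, as given further on. The order of the remaining neighbours changed between libraries, with Chrm1 above Ache in 7, Slc17a8 above Slc5a7 in 7, Chrm2 above Slc17a8 in 5 and Slc5a7 above Slc18a3 in 5. The annotated Chrm4 model has 1440 bases and starts 5060 bases after the RefSeq start, so its value per kb rests on a model without the upstream exon.

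**Figure D2:**
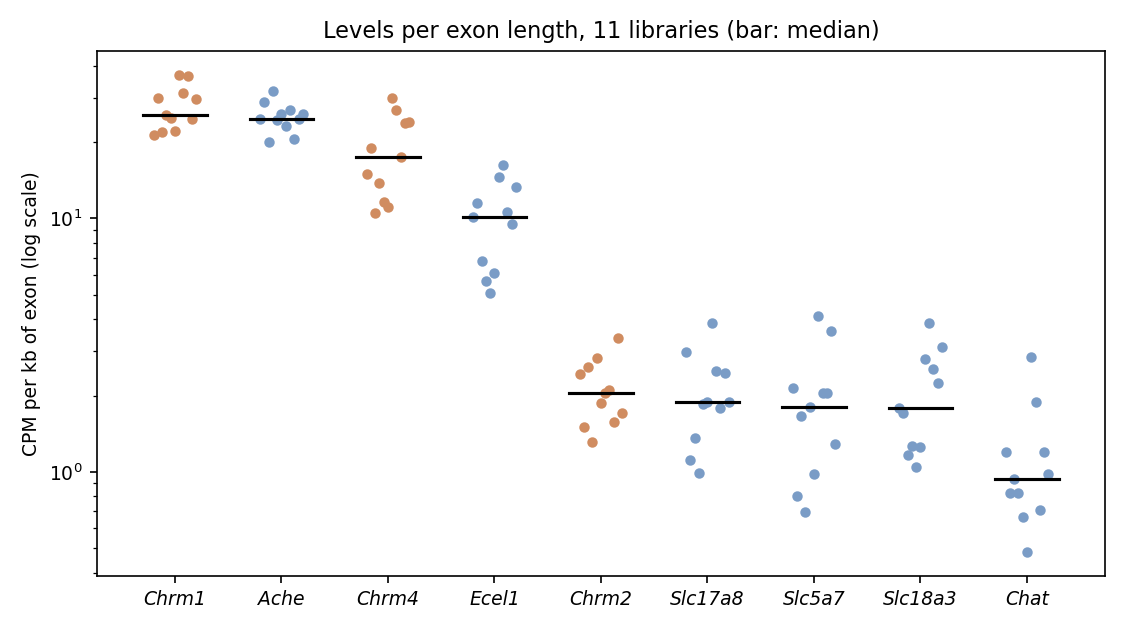
Level per kb of exon in CPM (log scale) for each gene, ordered by median, with 1 point per library and a bar at the median of the 11. Receptors are orange and markers blue. Chrm1, Ache, Chrm4 and Ecel1 lie above Chrm2, Slc17a8, Slc5a7, Slc18a3 and Chat, with medians of 25.7 at the top and 0.937 at the bottom.

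The 9 genes were next set against the amount of projection neuron RNA, measured as the mean deviation of the 12 projection neuron genes from their medians on the log2(CPM + 0.5) scale. Slc18a3 and Chrm4 were higher in libraries with a higher score. The slope, in log2 units per unit of score, was 1.36 ± 0.22 (SE, n = 11) for Slc18a3 (adjusted p = 0.0096) and 1.09 ± 0.18 for Chrm4 (adjusted p = 0.013) in edgeR's quasi-likelihood test with Benjamini-Hochberg adjustment over 15361 genes. These were 2 of the 9 genes, while 102 of all genes passed, or 0.664%, with 99 rising (0.644%) and 3 falling. Thus 1 of 6 markers and 1 of 3 receptors rose with the score. Ecel1, with a slope of 1.07 ± 0.23, missed the threshold (adjusted p = 0.058), as did Slc5a7 (1.29 ± 0.39, adjusted p = 0.23), Chat (1.19 ± 0.36, adjusted p = 0.21) and Slc17a8 (0.82 ± 0.32, adjusted p = 0.45). Over 20 alternative settings Ecel1 was called in 4, with adjusted p from 0.0011 to 0.57, and Slc5a7 in 2, from 0.017 to 0.71. These values came from edgeR's test, or from DESeq2's Wald test where that was the alternative. Slopes were 0.42 ± 0.17 for Chrm1 (adjusted p = 0.45), 0.16 ± 0.28 for Chrm2 and -0.11 ± 0.15 for Ache (both adjusted p = 0.998). The median slope was 1.13 over the 6 markers and 0.42 over the 3 receptors, and -0.03 over all genes tested.

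The relation of Slc18a3 and Chrm4 to the score could not be separated from the library codes. The score was 0.33 to 0.66 in codes 9 to 14 and -0.45 to -0.16 in codes 1 to 7, a gap of 0.44 of its whole range, so the score and the code range cannot be told apart. With the code range as a further term no gene passed edgeR's test (0 of 15361, with 2453 at an unadjusted p under 0.05), and the slopes were 1.53 for Slc18a3 (adjusted p = 0.39) and 1.57 for Chrm4 (adjusted p = 0.32). Within codes 9 to 14 they were 1.34 (adjusted p = 0.62) and 2.168 (adjusted p = 0.30), and within codes 1 to 7 they were 1.95 (adjusted p = 0.72) and 1.20 (adjusted p = 0.78). Leaving out m44 also took both below the threshold, with adjusted p of 0.079 for Slc18a3 and 0.062 for Chrm4. Over all 20 alternatives their adjusted p ranged from 1.8e-06 to 0.72 for Slc18a3 and from 5.1e-06 to 0.78 for Chrm4, and each was called in 15. Summed levels of markers of 2 other cell types overlapped between the code ranges. The summed level of 6 oligodendrocyte genes was 3148 to 4724 CPM in codes 9 to 14 and 1866 to 3306 CPM in codes 1 to 7. That of 8 GABAergic interneuron genes was 534 to 736 CPM in codes 9 to 14 and 387 to 596 CPM in codes 1 to 7. Their part in the result was not tested.

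**Figure D3:**
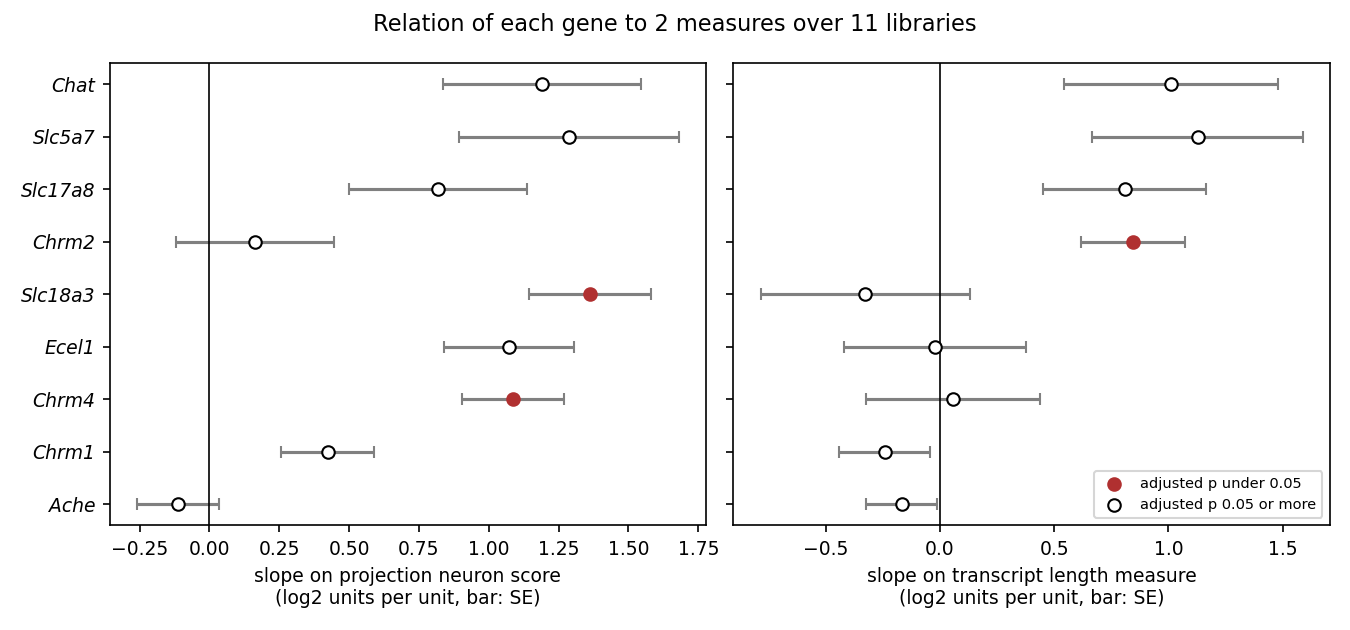
Slope of each gene over the 11 libraries on the projection neuron score (left) and on the transcript length measure (right), in log2 units per unit, with bars of 1 SE. Filled points passed an adjusted p of 0.05 in edgeR's quasi-likelihood test. Slc18a3 (1.36) and Chrm4 (1.09) are filled on the left and Chrm2 (0.85) on the right.

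Among the cholinergic markers themselves, none was related to Chat beyond the threshold. Across libraries 3 of 15372 genes were related to the level of Chat by edgeR's quasi-likelihood test at an adjusted p under 0.05, or 0.0195%, and all 3 (Mdga1, Oprd1 and Pdzd2, the last named after its values were seen) were higher where Chat was higher. None of the other 8 genes passed. The slopes per log2 unit of Chat were 0.80 ± 0.25 (SE, n = 11) for Slc5a7 (adjusted p = 0.34), 0.63 ± 0.23 for Slc18a3 (adjusted p = 0.41), 0.57 ± 0.18 for Slc17a8 (adjusted p = 0.35), 0.61 ± 0.18 for Ecel1 (adjusted p = 0.31) and 0.63 ± 0.15 for Chrm4 (adjusted p = 0.24). Ache, Chrm1 and Chrm2 had adjusted p values of 0.94, 0.61 and 0.87. The median slope was 0.61 over the 5 other markers and 0.19 over the 3 receptors, against 0.01 over all genes. DESeq2 called Chrm4 (slope 0.62, adjusted p = 0.041) and 0.709% of all genes. Over the 20 alternatives that kept Chat as the measure, the adjusted p of Chrm4 ran from 0.041 to 1.00, and DESeq2 was the only 1 that called it.

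When other markers took the place of Chat, a choice made after seeing the data, Slc18a3, Ecel1 and Chrm4 were related to each other in the same edgeR test. With the level of Slc18a3, 0.742% of genes passed, among them Ecel1 (slope 0.93 ± 0.13, adjusted p = 0.0052) and Chrm4 (0.86 ± 0.14, adjusted p = 0.010). With the level of Ecel1, 0.117% of genes passed, among them Slc18a3 (1.05 ± 0.16, adjusted p = 0.033) and Chrm4 (0.83 ± 0.14, adjusted p = 0.041). With the level of Slc5a7, 0.722% of genes passed, among them Slc17a8 (0.64 ± 0.13, adjusted p = 0.038) and not Slc18a3 (0.37 ± 0.22, adjusted p = 0.38). Slc18a3 separated fully by code range and Chrm4 all but for m49 and m61, so the code range was also added as a further term, likewise after seeing the data. No gene then passed with the level of Slc18a3 (0 of 15372, with 514 at an unadjusted p under 0.05 in edgeR's test) or of Ecel1 (0, with 713), and DESeq2 was not run on these fits. On Slc18a3 the slopes were 1.38 for Ecel1 and 0.71 for Chrm4 (both adjusted p = 0.99), and on Ecel1 they were 0.68 for Slc18a3 (adjusted p = 0.85) and 0.54 for Chrm4 (adjusted p = 0.88). With the level of Slc5a7 and the code range together, 29.5% of genes passed, among them Slc17a8 (0.65, adjusted p = 0.010) and Chrm2 (0.57, adjusted p = 0.0082). Differences between these slopes were not tested.

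The genes were also set against a measure of how transcripts of different length were represented. For each library the measure takes how far the 10% of genes with the longest transcripts lay from their medians (log2 scale, median gene) and subtracts the same value for the 10% with the shortest. It ran from -0.64 in m61 and -0.46 in m83 to 0.43 in both m57 and m115. It was related to 32.9% of all 15373 genes by edgeR's quasi-likelihood test, 18.0% rising and 14.9% falling. The longest and shortest 10% of genes, which make up the measure, were among those tested. These shares are therefore partly given by how the measure was built. Of the 9 genes only Chrm2 passed, rising by 0.85 ± 0.23 log2 units per unit (SE, n = 11, adjusted p = 0.011), so the share of called members was below that of all genes. Chrm2 passed in 18 of 19 alternatives, the exception being codes 9 to 14 alone (0.77, adjusted p = 0.16), and within codes 1 to 7 its slope was 1.19 (adjusted p = 0.026). Slc5a7 (1.13 ± 0.46, adjusted p = 0.074), Slc17a8 (0.81 ± 0.36, adjusted p = 0.096) and Chat (1.01 ± 0.47, adjusted p = 0.11) missed the threshold. With the code range as a further term, where 34.1% of genes passed, these 3 genes passed too, at 1.49 (adjusted p = 0.00066) for Slc5a7, 1.00 (adjusted p = 0.013) for Slc17a8 and 1.13 (adjusted p = 0.020) for Chat. Slc18a3 had a slope of -0.33 ± 0.46 (adjusted p = 0.63), and Ecel1, Ache, Chrm1 and Chrm4 had adjusted p values of 0.97, 0.44, 0.39 and 0.93. With the length measure as a further term in the fit to the projection neuron score, 2.41% of genes passed and Slc5a7 (1.33, adjusted p = 0.017) and Ecel1 (1.07, adjusted p = 0.025) joined Slc18a3 (1.35, adjusted p = 0.0034) and Chrm4 (1.09, adjusted p = 0.0046). That alternative too was chosen after seeing the data.

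**Figure D4:**
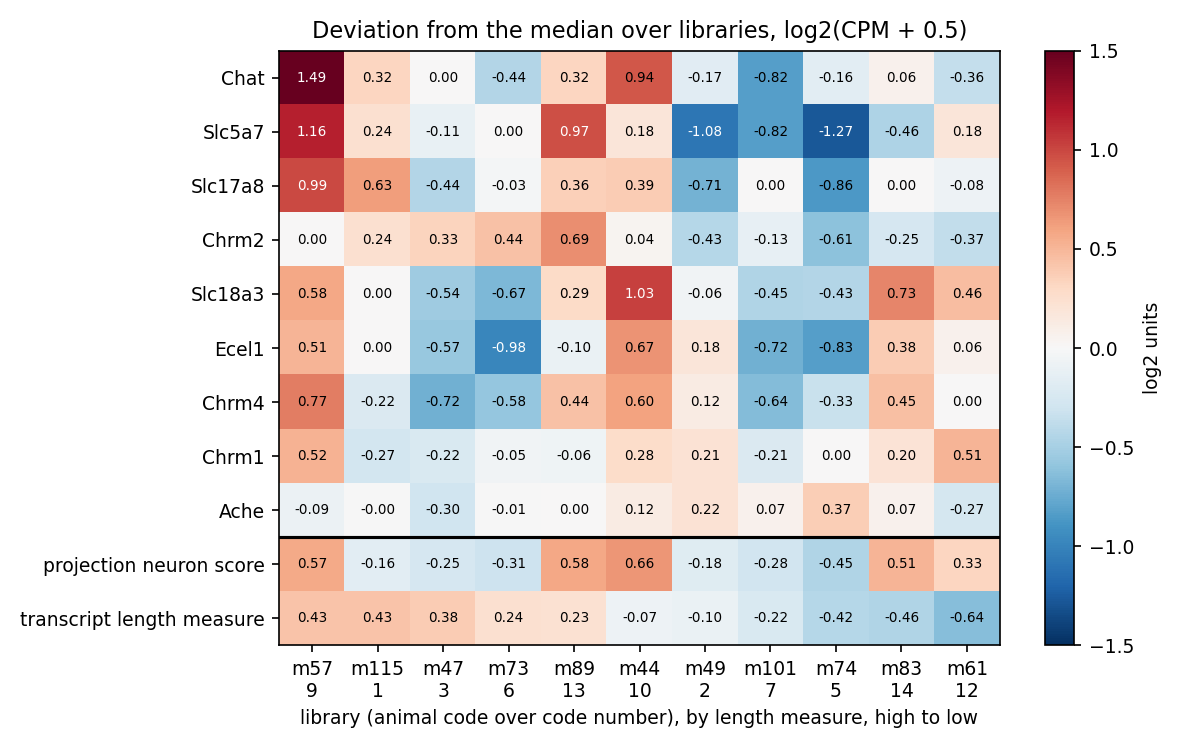
Deviation of each gene from its median over the 11 libraries on the log2(CPM + 0.5) scale, with libraries ordered by the transcript length measure from high (left) to low (right). The last 2 lines give the projection neuron score and the length measure. Slc18a3, Ecel1 and Chrm4 are high in m57, m44 and m83 whatever their length measure, while Slc5a7, Slc17a8 and Chrm2 are low in m49 and m74.

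Because Slc18a3 and Chat share a locus, the ratio of their counts was followed across libraries. It was 0.503 in m57, 1.05 in m44, 1.84 in m61, 0.961 in m89 and 1.62 in m83, and 0.765 in m115, 1.06 in m49, 0.638 in m47, 0.786 in m74, 0.811 in m73 and 1.33 in m101. The shorter Slc18a3 (2413 exon bases) was most abundant relative to Chat (4703 exon bases) in m61 and m83, the libraries with the lowest length measure, but not in m74, which came next. The log ratio fell with the measure, with Pearson's r = -0.82 (permutation p = 0.0024, adjusted p = 0.0048) and Spearman's rho = -0.85 (permutation p = 0.0014, adjusted p = 0.0028) over 11 libraries. Without the 2 libraries farthest from the median measure (m61 and m57) r was -0.69 (permutation p = 0.044). Within codes 1 to 7 r was -0.57 (exact permutation p = 0.25, n = 6). Codes 9 to 14 held 5 libraries, too few for a correlation here, and among them the ratio fell at each step up in the length measure, which was -0.64 in m61, -0.46 in m83, -0.07 in m44, 0.23 in m89 and 0.43 in m57. The 2 ratios tested were chosen after their values were seen, and both tests were two-sided and adjusted over the 2.

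The other ratio set the direct-pathway receptor Chrm4 against Chrm1, which both pathways use. It was lowest in m73 at 0.104 and highest in m89 at 0.215. Over 11 libraries its log rose with the projection neuron score, with r = 0.77 (permutation p = 0.012, adjusted p = 0.012) and rho = 0.81 (permutation p = 0.0038, adjusted p = 0.0038). Without the 2 libraries farthest from the median score (m44 and m89) r was 0.63 (permutation p = 0.078, n = 9). Whether the relation rests on those 2 was not tested, since no other pair was left out. Within codes 1 to 7 r was 0.56 (exact permutation p = 0.18, n = 6). The 5 libraries of codes 9 to 14 were too few for a correlation here, and among them m61 had both the lowest ratio (0.106) and the lowest score (0.33), while the highest ratio was in m89 and the highest score in m44.

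**Figure D5:**
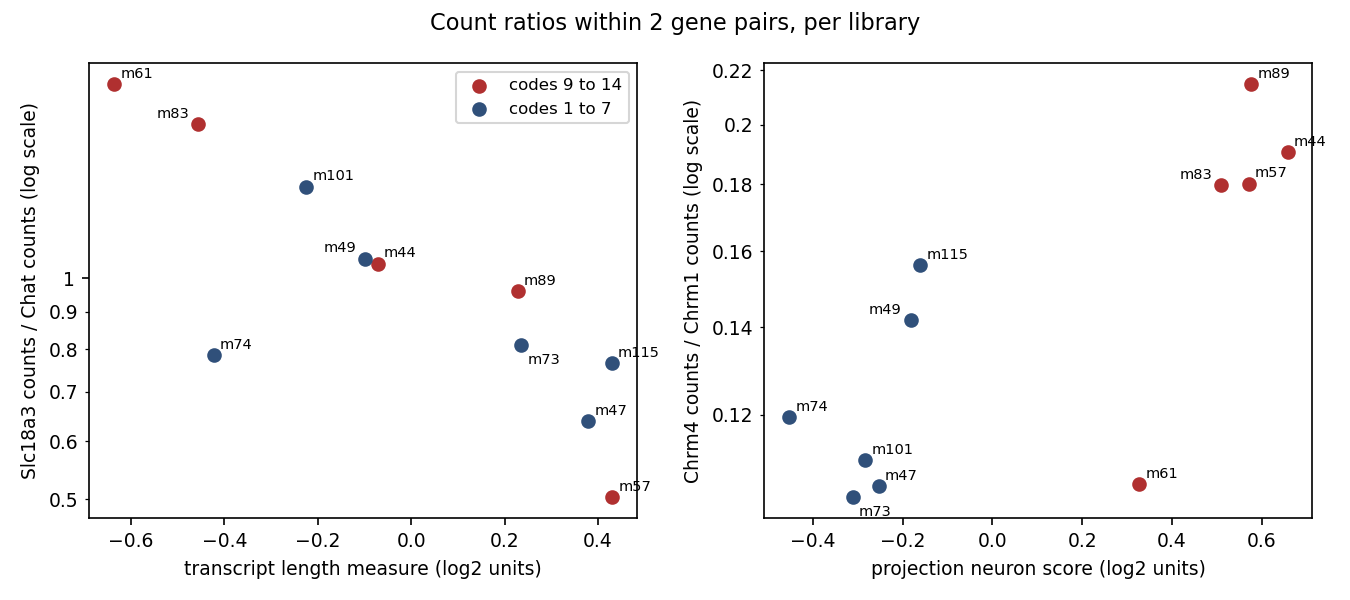
Ratio of Slc18a3 to Chat counts against the transcript length measure (left) and of Chrm4 to Chrm1 counts against the projection neuron score (right), on log vertical axes, with 1 point per library coloured by code range. The left ratio is highest in m61 (1.84) and lowest in m57 (0.503), and on the right m61 (0.106) lies below the other libraries of codes 9 to 14.

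Cortex lies near the punch and expresses Chrm1, so the genes were also set against a score of 10 cortical glutamatergic genes (Slc17a7, Tbr1, Neurod2 and others). Their summed level was 1374 to 2670.1 CPM in codes 9 to 14 and 911 to 1602 CPM in codes 1 to 7. No gene was related to the score by edgeR's quasi-likelihood test (0 of 15363, or 0.0%, with 1366 at an unadjusted p under 0.05), and DESeq2 called 0, which does not show that no gene was related. Chrm1 had a slope of 0.63 ± 0.37 (SE, n = 11, adjusted p = 0.58). Cholinergic neurons also lie in the septum and basal forebrain. The summed level of 9 genes of septum, hypothalamus and thalamus was 64.7 to 87.1 CPM in codes 9 to 14 and 64.3 to 112.5 CPM in codes 1 to 7, and 3 of them (Lhx9, Sim1 and Otp) were too low to test. The part of such neurons in the marker levels was not tested.

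Regulators and receptors that mark forebrain cholinergic neurons were all detected: 9 of 9 passed the filter. Lhx8, the LIM homeobox factor that specifies these cells, had 1.84 CPM in m74, a median of 5.12 and 8.26 CPM in m44. For Lhx8 and for Tacr1, the substance P receptor of these interneurons (12.1 to 30.7 CPM), m44 was the highest library, as it was for Slc18a3 and Ecel1. None of the 9 was related to Chat or to the projection neuron score, and 1 rose with the length measure (Isl1, slope 0.48, adjusted p = 0.036 in edgeR's quasi-likelihood test), against 18.0% of all genes. Their median slope on the projection neuron score was 0.66.

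In the other genes of the acetylcholine pathway, the relations that passed were with the length measure, to which 32.9% of all genes were related. Of the remaining muscarinic receptors, Chrm3 (Gq-coupled) had 18.8 to 33.1 CPM and Chrm5 was too low to test, at 0 to 1.04 CPM. Of 11 neuronal nicotinic subunits 6 were tested, led by Chrnb2 (median 84.4 CPM) and Chrna4 (54.7 CPM), which form the main brain receptor. Chrna7, which forms homomeric receptors, ranged from 0.655 CPM in m101 to 18.1 CPM in m57. It was the only 1 of the 6 related to the length measure (slope 3.13 ± 0.59, adjusted p = 0.0013 in edgeR's test), against 32.9% of all genes. Of 5 proteins that fold or bind nicotinic receptors, 3 fell with the measure by edgeR's test (Lynx1, Ly6h and Tmem35a, with slopes of -0.62, -0.55 and -0.50), against 14.9% of all genes. Of 13 genes downstream of muscarinic receptors, 4 rose with it in the same test, among them Gnaq (slope 0.44), Plcb4 (0.54) and Kcnq3 (0.70), against 18.0% of all genes. None of the 7 tested genes of choline supply and cholinesterase anchoring passed in any of the 4 fits. No gene of these lists was related to Chat or to the projection neuron score, against 0.0195% and 0.664% of all genes. The pathway lists had, on the projection neuron score, median slopes of 0.23 for nicotinic subunits, 0.13 for muscarinic signalling and -0.02 for choline handling. Genes of the direct and indirect pathways mark the same projection neurons as the score, so their rise with it is not independent of how the score was built. Of these, 4 of 5 indirect-pathway genes (Drd2, Adora2a, Penk and Gpr6) and 2 of 5 direct-pathway genes (Drd1 and Pdyn) rose with the score, against 0.644% of all genes. All 6 were higher in every library of codes 9 to 14 than in any of codes 1 to 7, as were 1.67% of all genes tested. The 6 had passed on a score that itself separates by code range, so this was close to given. No gene passed with the code range as a further term.

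Genes whose levels most resembled each of the 9 were listed as a description, by Pearson's r of log2(CPM + 0.5) over the 11 libraries among 15373 genes, and carry no test. Those of Slc18a3 were Gramd3 (r = 0.98), Gng7 (0.97) and Adcy5 (0.97), of which the last 2 are in the projection neuron list, and Adcy5 was also the third gene for Chrm4 (0.95) after Mcam (0.96) and Htr6 (0.96). Pde10a, another projection neuron gene, was the third for Slc5a7 (0.96), after Homer1 (0.96) and Ahcyl1 (0.96). For Chat they were Oprd1 (0.94), Snx25 (0.94) and Mdga1 (0.93), and for Slc17a8 Ankrd34b (0.92), Col6a3 (0.89) and Gcnt4 (0.89). For Ecel1 they were Cpne5 (0.97), Ppp1r7 (0.96) and Erf (0.96), and for Ache Trim3 (0.96), Slc25a10 (0.94) and Nckipsd (0.94). Chrm1 was followed by Ptk2b (0.98), C1ql1 (0.98) and Mmp17 (0.97), and Chrm2 by Slc35e2 (0.94), Platr25 (0.94) and Zfp664 (0.94). No 2 of the 9 genes shared more than 1 of their 3 nearest genes.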

How the data were processed

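Poly(A) RNA of 11 libraries was sequenced, and the deposited table holds the authors' read counts per gene without normalization. The submitters' processing notes name HTSeq 0.6.1, Bowtie2 2.1.0, TopHat2 2.0.14 and bcl2fastq 2.17.1.14, and the build mm10. How strand was treated in counting, and which annotation release was used, is not given in the sources used here. Gene names, coordinates and exon lengths came from GENCODE M21 (52403 of 52550 identifiers matched), and promoter sequences from RefSeq (GRCm38.p6). No per-sample column was left out.

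CPM used TMM-scaled library sizes (factors 0.908 to 1.06). The 15373 genes tested reached 1 CPM in 3 or more libraries and had a median count of 10 or more. With no groups in the labels, edgeR 4.0.16 (R 4.3.3) fitted each gene's slope on 1 numeric measure at a time by the quasi-likelihood test, Benjamini-Hochberg over all genes, threshold 0.05. Genes that make up a score, or serve as a measure themselves, were not tested against it. The length measure was the exception, since the longest and shortest 10% of genes were tested against it too. The standard error is the slope divided by the square root of F. DESeq2 1.42.0 was an alternative. A relation was to be dropped if its measure fell into separate clusters (a gap over 0.5 of the range), and none did. Ratios were tested with 100000 permutations in scipy 1.17.1 (Python 3.11.15, numpy 2.4.6, pandas 2.3.3, matplotlib 3.10.9). The fits were tested on simulated data.

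Alternatives were other size factors, unscaled totals, no filter, DESeq2, single libraries or the 2 most distant libraries left out, and the library codes as a term or as strata. The 9 genes, the 17 gene lists and the code ranges were chosen with earlier results of these data known. Genes named are the 9, members of the lists (some of which are not reported here), and for each of the 9 the 3 genes of highest Pearson r. Each library has its own animal code per the labels. Intervals on counts cover counting error only, since reads carry no molecular identifiers.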

Additional observations from a re-analysis of the deposited data

How the results depend on the processing

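Counts of genes varied with the processing, as did slopes of the 9 genes, given below. Genes related to Chat numbered 3, and 0 with unscaled totals, without the 2 libraries farthest from the median, within codes 9 to 14, within codes 1 to 7, with the level of Slc17a8 in place of Chat or with the length measure as a further term. They numbered 109 with DESeq2, 141 with the code range as a term, 18, 111 and 114 with the level of Ecel1, Slc5a7 or Slc18a3 in place of Chat (0, 4541 and 0 with the code range as a term as well), and 0 to 6 when 1 library was left out (0 without any 1 library but m49, 6 without m49). Genes related to the projection neuron score numbered 102, and 320 with DESeq2, 20 without the 2 farthest libraries, 370 with the length measure as a term, 0 with the code range as a term, within codes 9 to 14 or within codes 1 to 7, and 34 to 122 with 1 library left out (65 without m47, 56 without m73, 64 without m101, 61 without m57 and 34 without m44). Genes related to the length measure numbered 5054, and 1833 within codes 9 to 14 and 2791 within codes 1 to 7, where fewer libraries were used. The cause of the other changes was not tested.

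Of 740 slopes of the 9 genes under an alternative, 74 changed sign, and 0 of these passed the test with or without the alternative. Among slopes printed here, those on the projection neuron score turned to 0.042 with the code range as a term and 1.16 within codes 9 to 14 for Ache, to -0.48 with the code range as a term, -0.67 within codes 9 to 14 and -0.069 within codes 1 to 7 for Chrm1, and to -0.19 without the 2 farthest libraries for Chrm2. With 1 library left out they ran from -0.18 to 0.0074 for Ache and from -0.10 to 0.32 for Chrm2. The slope of Chrm1 on the cortical score was -0.11 within codes 9 to 14. Slopes on the length measure turned to 0.16 within codes 1 to 7 for Slc18a3, to 0.04 with unscaled totals, 0.22 with the code range as a term, 0.17 within codes 9 to 14 and 0.38 within codes 1 to 7 for Ecel1, to 0.12 within codes 9 to 14 for Ache, and to -0.46 without the 2 farthest libraries and -0.14 within codes 1 to 7 for Chrm4. With 1 library left out they ran from -0.32 to 0.16 for Ecel1 and from -0.33 to 0.26 for Chrm4. Single libraries also brought calls: Ecel1 on the projection neuron score without m49 (adjusted p = 0.022) or m89 (0.038), and on the length measure Slc5a7 without m61 (0.010), Slc17a8 without m47 (0.039), Ache without m61 (0.028) and Chrm1 without m57 (0.029), in edgeR's quasi-likelihood test. With the code range as a term as well, slopes on Ecel1 or Slc18a3 in place of Chat turned to -0.038 and -0.50 for Slc5a7, and slopes on Slc5a7 to -0.11 for Slc18a3, -0.036 for Ecel1 and -0.020 for Chrm4. With 1 library left out, slopes on the length measure ran from 0.43 to 1.17 for Chat, 0.80 to 1.87 for Slc5a7 and -0.63 to -0.11 for Slc18a3, and that of Chrm1 on the cortical score from 0.36 to 0.84. Over 20 alternatives, slopes on the projection neuron score ran from 0.80 to 5.17 for Chat, 1.03 to 3.63 for Slc5a7, 0.58 to 3.60 for Slc17a8 and 0.97 to 3.67 for Ecel1. Median levels of the 9 genes moved by less than the SD over libraries in every setting run.

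No paired analysis was possible because the labels give the libraries neither groups nor replicate numbers. With no genotype per library, the spread reported here holds genotype, animal, dissection and library effects together. At 3.32 CPM Chat in m61 rested on 75 counts, so its counting error exceeds that of the receptors.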
